A study of Homo sapiens with 6 samples.

Results

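The genes described here are 45 listed components of the PI3K, AKT, mTOR and FOXO pathway. They were chosen by name for their role in it, with earlier results of these data known. Of these, 42 were measured, among 18417 genes in all, each through the brightest probe set that the array annotation assigns to that gene symbol alone. PIK3CA and PIK3R2 had no such probe set in the annotation used, and SGK3 was covered only by a probe set that it shares with a second gene symbol, so these 3 genes were not analysed here. Messenger RNA was measured on Affymetrix Human Gene ST arrays in MDA-MB-231 cells, an established human triple negative breast cancer line. The 3 EC-70124 arrays were made from cells exposed for 24 h to 500 nM EC-70124, an indolocarbazole inhibitor of many kinases obtained by combining the biosynthetic routes of rebeccamycin and staurosporine, and the 3 control arrays from cells of the same line that were not given the drug. The methods describe the 3 samples of each group as independent, although whether the control plates received the drug's solvent was not stated in the sources used here. All 6 arrays carry the same line, so every value below belongs to 1 cell line at 1 dose and 1 time.

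In this pathway, receptors for insulin and other growth factors recruit class I PI3K, whose lipid product draws PDK1 and AKT to the membrane, where AKT is activated. AKT in turn holds FOXO transcription factors out of the nucleus, restrains GSK3 and relieves the block that the TSC complex places on RHEB, the small GTPase that switches on mTOR complex 1 at the lysosome when the Rag GTPases report enough amino acids. Lipid and protein phosphatases, together with AMPK, oppose these steps. The whole relay runs by phosphorylation, which arrays of mRNA do not see: the values below are transcript levels and say nothing of kinase activity.

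Pathway genes changed in both directions. Of the 42 measured members, 10 rose and 12 fell in EC-70124 cells, and 20 did not pass the test (limma, adjusted p under 0.05 over all genes). These 22 calls were 52.4% of the members, against 34.5% of all genes. Because the list was chosen with earlier results of these data known, its shares are a description of the list only. By direction, 23.8% of members rose against 19.7% of all genes, and 28.6% fell against 14.8% of all genes. Members were mostly bright, and when the dimmest 30% of genes were left out, 22 of the 41 remaining members passed against 47.7% of the remaining genes. By direction, 10 of these 41 members rose and 12 fell, while 3446 of the 12892 remaining genes rose and 2702 fell. The 3 EC-70124 arrays lay wholly above the 3 control arrays for 11 members, where 25.6% of all genes did so, and wholly below them for 15 members, where 22.0% of all genes did so. The balance of directions depended on the scaling: rises were 57.15% of the calls over all genes as deposited and 46.9% after quantile normalization, under which 8 members rose and 15 fell.

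The changes were small for most members. On the log2 scale, where 1 unit is a factor of 2 and a positive value means higher in EC-70124 cells, the members ranged from -0.80 for RRAGD to 0.60 for RPS6KB2, with a median of -0.013, beside a median of -0.0045 over all genes. Only 5 members, or 11.9%, changed by at least 1.5-fold (PIK3C2B, PHLPP1, RRAGD, RPS6KB2 and SGK1), against 9.72% of all genes. The plot of pathway members by array shows called rises and falls within the same role for several roles. These were the class II PI3Ks, the phosphatases, the mTOR complexes, the Rag GTPases and the AMPK branch. In the role that groups the S6 kinases with RSK1 and the eIF4E-binding proteins, RPS6KB2 rose and RPS6KA1, which encodes RSK1, fell.

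**Figure D1:**
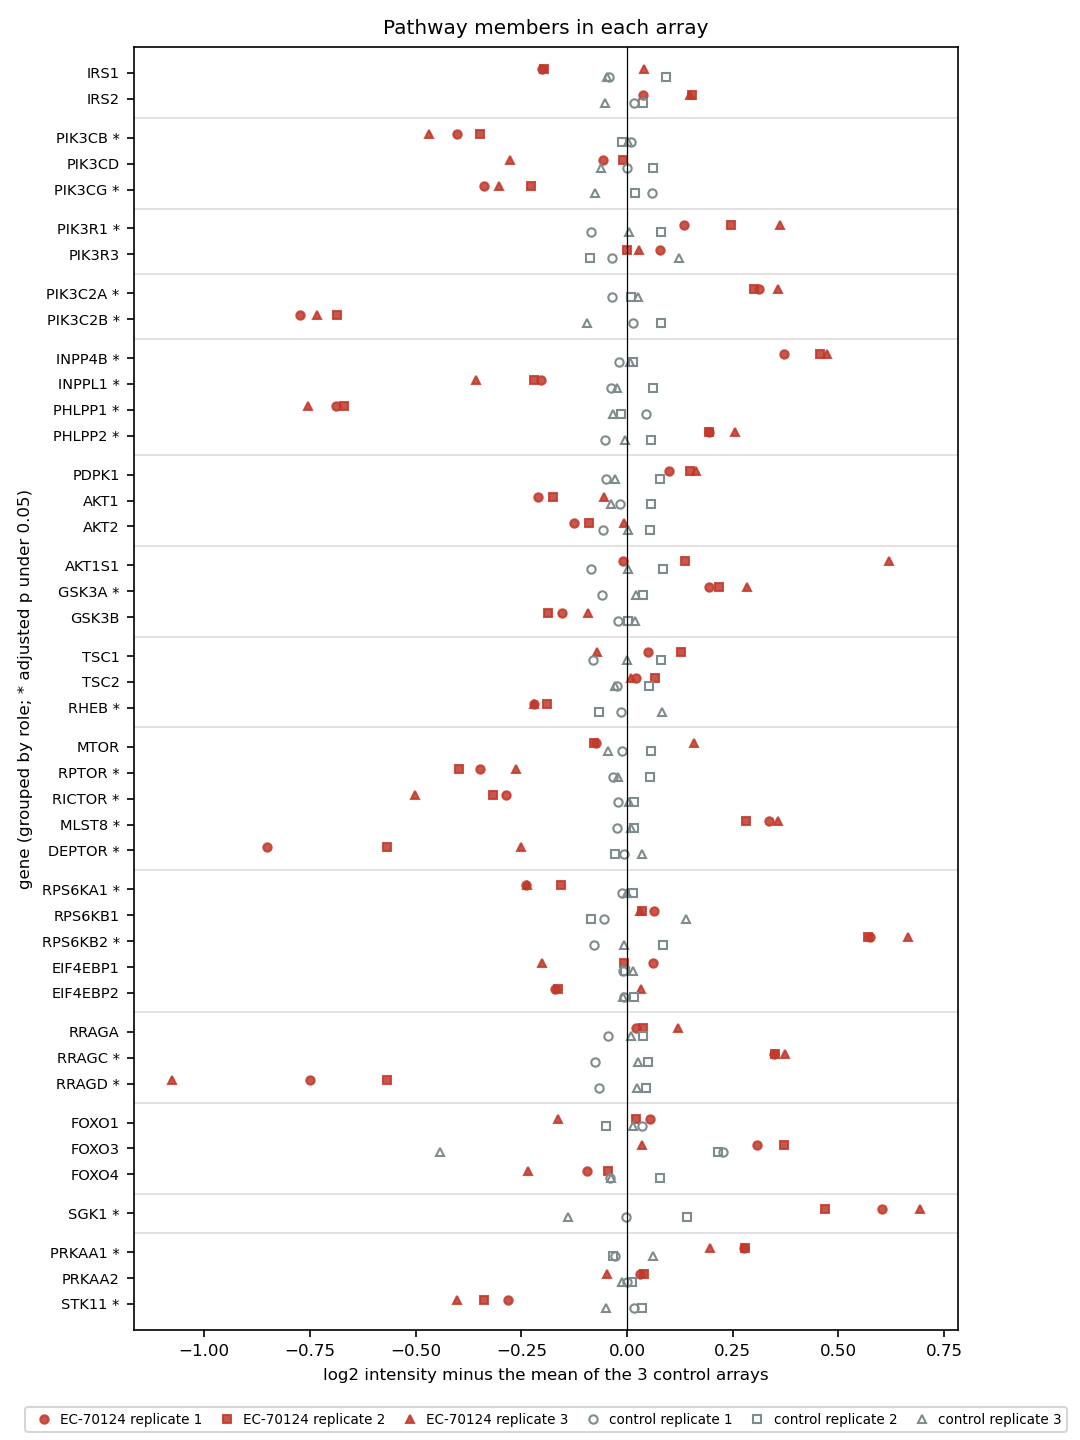
Log2 intensity of each of the 42 measured members in each array (x axis), minus the mean of the 3 control arrays, with genes grouped by role (y axis). Filled red symbols are EC-70124 replicates 1 to 3, open gray symbols are control replicates 1 to 3, and an asterisk marks an adjusted p under 0.05 (limma). The lowest EC-70124 mean belongs to RRAGD (-0.80) and the highest means to RPS6KB2 (0.60) and SGK1 (0.59).

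EC-70124 replicate 3 stood apart from the other treated arrays. It was the EC-70124 array farthest from the group's mean for 30 of the 42 members (71.4%) and for 50.5% of all genes. Over the members, the log2 differences between EC-70124 replicates 1 and 2 had an SD of 0.075, whereas those of replicate 3 had an SD of 0.19 against replicate 1 and 0.18 against replicate 2. Without EC-70124 replicate 3, 9 members rose and 16 fell, with 21 of the 22 calls shared, while 37.1% of all genes passed. The sources used here name neither a batch nor a day of scanning, and the part of either in these values was not tested. Correlations over all probe sets were 0.990 to 0.993 within a group and 0.979 to 0.984 between groups. VIM, the mesenchymal filament abundant in this line, had intensities of 13302, 13305 and 12837 in EC-70124 cells and 13991, 13786 and 13703 in control cells. Probe sets for ESR1 and PGR stayed between 149 and 233 on every array. ERBB2 was brighter, between 1442 and 1566 on every array, and did not pass the test (log2 fold change 0.028). Of the 10 listed markers of the line, KRT18 (0.77), KRT8 (0.20) and CDH1 (0.19) rose and KRT19 (-0.49) and CD44 (-0.29) fell on the log2 scale, and their part in the members' values was not tested. None of the 7 measured of 8 leukocyte and endothelial markers passed the test, and the intensities of the probe sets used lay between 78.6 and 731. A second, dimmer PECAM1 probe set, between 29.2 and 59.9, fell by 0.67 (limma adjusted p over all probe sets 0.0150). Of all probe sets, 22.1% passed. In bulk RNA of this kind, fewer cells of a type and less RNA per cell cannot be told apart.

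Promoter sequence was examined because FOXO factors bind DNA directly and because several pathway genes are known targets of stress and lysosomal transcription factors. RefSeq promoters (GRCh38.p14) were matched for 36 of the 42 members, and the 250 bases before the annotated start were searched on both strands. The full FOXO site GTAAACA occurred in 0 member promoters, against 3.0% of all 27305 promoters, and its core TAAACA, which lies inside that site, in 2 (5.6%) against 11.1% of all. The ATF4 and CHOP element TGATGNAAN occurred in 1 member promoter (2.8%, against 3.2% of all), as did TCACGTGA, the E-box of the TFEB family (2.8%, against 0.9% of all). The GC box GGGCGG was found in 28 member promoters (77.8%, against 42.3% of all), and the median GC content was 68.0% in member promoters against 58.0% in all. A match is only a run of letters, and the RefSeq start may not be the start used in these cells.

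The 3 member promoters with a match other than the GC box are shown because they are the only ones that carry letters of a FOXO, ATF4 or TFEB element, with the matching bases in capitals. Each covers the 250 bases before the start, 5′ to 3′ on the gene's strand, at chr11:67428244-67428493 (plus strand) for RPS6KB2, chr7:106865229-106865478 (plus strand) for PIK3CG and chr16:2047735-2047984 (plus strand) for TSC2.
RPS6KB2: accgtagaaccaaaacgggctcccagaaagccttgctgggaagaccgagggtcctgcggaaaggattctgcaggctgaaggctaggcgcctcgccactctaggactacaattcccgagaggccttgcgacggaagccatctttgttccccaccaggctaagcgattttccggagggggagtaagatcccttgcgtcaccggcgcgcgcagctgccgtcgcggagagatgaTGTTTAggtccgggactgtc
PIK3CG: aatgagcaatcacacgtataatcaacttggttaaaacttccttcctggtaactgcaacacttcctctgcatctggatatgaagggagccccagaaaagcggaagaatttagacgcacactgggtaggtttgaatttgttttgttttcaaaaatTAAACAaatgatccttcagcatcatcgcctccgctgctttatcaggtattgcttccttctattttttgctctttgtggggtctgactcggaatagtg
TSC2: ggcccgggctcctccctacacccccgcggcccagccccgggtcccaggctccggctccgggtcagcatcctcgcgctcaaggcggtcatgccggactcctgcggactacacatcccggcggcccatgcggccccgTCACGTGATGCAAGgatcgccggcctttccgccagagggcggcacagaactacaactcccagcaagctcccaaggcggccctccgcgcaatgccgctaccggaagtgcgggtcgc
In RPS6KB2 the capitals are the FOXO core read on the opposite strand, at positions -20 to -15 (the base before the start being -1), and in PIK3CG they are the same core on the gene's strand, at -97 to -92. In TSC2 the E-box at -115 to -108 overlaps the ATF4 and CHOP element TGATGCAAG at -110 to -102. The transcripts of these 3 genes went different ways: RPS6KB2 rose, PIK3CG fell, and TSC2 did not pass the test.

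At the entry to the pathway, the insulin receptor substrates, docking proteins that link the insulin and IGF1 receptors to PI3K, did not pass the test. IRS2 had intensities of 957, 1037 and 1034 in EC-70124 cells and 942, 958 and 899 in control cells, with a log2 fold change of 0.11 ± 0.059 (SE; adjusted p = 0.189). EC-70124 replicate 1 lay within the range of the control arrays. IRS1 had a log2 fold change of -0.12 ± 0.082 (SE; adjusted p = 0.318). Its value rested on 1 array: without EC-70124 replicate 3 it was -0.20 and passed the test (adjusted p = 0.0438).

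Among class I PI3K genes, 2 catalytic subunits fell and 1 regulatory subunit rose. PIK3CB, the beta catalytic subunit found in most cells, had intensities of 2347, 2437 and 2241 in EC-70124 cells and 3122, 3077 and 3103 in control cells, and fell by 0.41 on the log2 scale (SE 0.055; adjusted p = 0.000716). All EC-70124 arrays lay below all control arrays. PIK3CG, the gamma catalytic subunit best known from leukocytes, also fell, with means of 1274 ± 50.3 in EC-70124 cells and 1558 ± 74.3 in control cells (SD, n = 3 arrays each; log2 fold change -0.29, limma adjusted p = 0.00679). PIK3CD, the delta subunit, gave -0.11 (adjusted p = 0.330).

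Among the regulatory subunits, PIK3R1, which holds and stabilises the catalytic subunits, had intensities of 2003, 2163 and 2345 in EC-70124 cells and 1721, 1929 and 1830 in control cells. The groups did not overlap, although the gap between EC-70124 replicate 1 and control replicate 2 was narrow. PIK3R1 rose by 0.25 on the log2 scale (SE 0.076; adjusted p = 0.0355), a call that was lost without any 1 of 4 arrays: the adjusted p was 0.129 without control replicate 1, 0.0831 without control replicate 3, 0.0864 without EC-70124 replicate 2 and 0.0732 without EC-70124 replicate 3. It was also lost under quantile normalization (log2 fold change 0.17, adjusted p = 0.119). PIK3R3, a regulatory subunit of the same family, gave 0.036 (adjusted p = 0.739).

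The class II PI3Ks, which make other phosphoinositides at endocytic and endosomal membranes, went in opposite directions. PIK3C2B had intensities of 329, 350 and 338 in EC-70124 cells and 568, 595 and 527 in control cells, and fell by 0.73 (SE 0.064; adjusted p = 7.63e-05). The EC-70124 arrays were close to each other and far below every control array. PIK3C2A rose by 0.32 (SE 0.052; adjusted p = 0.00176), averaging 4768 ± 99.1 in EC-70124 cells and 3811 ± 82.0 in control cells (SD, n = 3 arrays each; limma).

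All 4 phosphatases among the members passed the test, where 34.5% of all genes passed, or 47.7% without the dimmest 30%. INPP4B and PHLPP2 rose, and PHLPP1 and INPPL1 fell. PHLPP1, a protein phosphatase that removes an activating phosphate of AKT, had intensities of 610, 618 and 582 in EC-70124 cells and 1014, 974 and 961 in control cells. Its arrays separated completely, with a log2 fold change of -0.70 ± 0.055 (SE; adjusted p = 4.55e-05). A second PHLPP1 probe set was very dim, with 33.3, 37.5 and 40.3 in EC-70124 cells and 45.3, 48.2 and 32.8 in control cells, and did not pass among all probe sets (-0.17, adjusted p = 0.515, where 22.1% of the probe sets passed). Taking the median of both probe sets in place of the brighter one gave a fall of 0.44, which still passed. PHLPP2, the second enzyme of this kind, rose by 0.21 (adjusted p = 0.0177), but not without control replicate 1 (0.19, adjusted p = 0.0781) or control replicate 3 (0.21, adjusted p = 0.0515), nor under quantile normalization (0.14, adjusted p = 0.0804).

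Of the lipid phosphatases, INPP4B, which degrades a product of PI3K and is often lost in breast cancers of the basal type, rose by 0.43 (SE 0.055; adjusted p = 0.000478). It averaged 1929 ± 73.1 in EC-70124 cells and 1427 ± 17.5 in control cells (SD, n = 3 arrays each; limma), without overlap. INPPL1, also called SHIP2, which degrades the main product of class I PI3K, fell by 0.26 (adjusted p = 0.0137), and by 0.23 without control replicate 2, where the call was lost (adjusted p = 0.0562).

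The central kinases did not pass the test. PDPK1, which encodes the AKT-activating kinase PDK1, had intensities of 4505, 4668 and 4713 in EC-70124 cells and 4062, 4444 and 4126 in control cells (log2 fold change 0.14 ± 0.058, SE; adjusted p = 0.111). Its groups did not overlap, but control replicate 2 came close to EC-70124 replicate 1. AKT1 gave -0.15 (95% interval -0.29 to -0.0022; adjusted p = 0.113) and AKT2 gave -0.075 (95% interval -0.21 to 0.062; adjusted p = 0.390). The EC-70124 arrays of AKT1 all lay below its control arrays, and AKT1 passed the test without EC-70124 replicate 3 (-0.19, adjusted p = 0.0303) and under quantile normalization (-0.19, adjusted p = 0.0409).

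Of the AKT substrates, GSK3A, a kinase of glycogen and beta-catenin regulation that AKT restrains, had intensities of 4536, 4617 and 4830 in EC-70124 cells and 3809, 4073 and 4028 in control cells. All EC-70124 arrays were higher, and GSK3A rose by 0.23 (SE 0.057; adjusted p = 0.0137), with the call lost without control replicate 1 (0.20, adjusted p = 0.0631). GSK3B, its close relative, gave -0.14 (adjusted p = 0.0714) with all EC-70124 arrays below the control arrays, and fell past the threshold without EC-70124 replicate 3 (-0.17, adjusted p = 0.0328), under quantile normalization (-0.19, adjusted p = 0.0206) and under cyclic loess (-0.18, adjusted p = 0.0287). AKT1S1, also called PRAS40, an mTOR complex 1 inhibitor, had intensities of 1415, 1566 and 2187 in EC-70124 cells and 1342, 1510 and 1426 in control cells. The higher mean rested on EC-70124 replicate 3 alone: the log2 fold change was 0.25 with it (adjusted p = 0.246) and 0.063 without it.

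Between AKT and mTOR, the TSC genes did not pass the test, with log2 fold changes of 0.036 for TSC1 (adjusted p = 0.752) and 0.031 for TSC2 (95% interval -0.093 to 0.16; adjusted p = 0.706). RHEB had intensities of 4139, 4231 and 4139 in EC-70124 cells and 4773, 4604 and 5108 in control cells. The control arrays were the more scattered, and every one was above the EC-70124 arrays. RHEB fell by 0.21 (SE 0.059; adjusted p = 0.0240), but the adjusted p was 0.0667 without control replicate 1, 0.0784 without control replicate 3, 0.0669 without EC-70124 replicate 1 and 0.0569 without EC-70124 replicate 2. Its second probe set gave -0.18 (adjusted p over all probe sets 0.0694).

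The mTOR complexes showed 4 changed partners around an mTOR transcript that did not pass the test. Over all genes, 34.5% passed, or 47.7% without the dimmest 30%. MTOR itself gave a log2 fold change of 0.0022 (95% interval -0.18 to 0.18; adjusted p = 0.987). RPTOR, the scaffold that defines complex 1, fell by 0.34, with means of 1869 ± 88.4 in EC-70124 cells and 2359 ± 77.8 in control cells (SD, n = 3 arrays each; limma adjusted p = 0.00285). RICTOR, the scaffold that defines complex 2, fell by 0.37, with means of 3289 ± 258 in EC-70124 cells and 4236 ± 55.9 in control cells (SD, n = 3 arrays each; limma adjusted p = 0.00370).

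MLST8, a subunit of both complexes, rose by 0.32, with means of 3285 ± 89.0 in EC-70124 cells and 2624 ± 37.8 in control cells (SD, n = 3 arrays each; limma adjusted p = 0.00176). DEPTOR, an inhibitor that binds mTOR in both complexes, had intensities of 208, 253 and 315 in EC-70124 cells and 373, 367 and 384 in control cells, and fell by 0.56 (SE 0.13; adjusted p = 0.0122). Its control arrays were close together, the EC-70124 arrays were spread out, and no value crossed between groups. DEPTOR was the dimmest member, and the deposited values hold no background measure, so how much of its intensity is background was not tested.

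Downstream of mTOR complex 1, 1 S6 kinase gene rose and the other did not pass the test. RPS6KB2, which encodes S6 kinase 2, had intensities of 1913, 1905 and 2035 in EC-70124 cells and 1216, 1361 and 1278 in control cells, and rose by 0.60 (SE 0.063; adjusted p = 0.000187). All EC-70124 arrays were well above the control arrays. RPS6KB1, which encodes S6 kinase 1, gave 0.043 (95% interval -0.12 to 0.21; adjusted p = 0.691). RPS6KA1, which encodes RSK1, a kinase activated by ERK that shares some substrates with the S6 kinases, fell by 0.21 (adjusted p = 0.0153), with the call lost without control replicate 2 (adjusted p = 0.0549) or EC-70124 replicate 1 (adjusted p = 0.0539).

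The eIF4E-binding proteins, translation repressors that mTOR complex 1 switches off, did not pass the test, with log2 fold changes of -0.050 for EIF4EBP1 (adjusted p = 0.660) and -0.10 for EIF4EBP2 (adjusted p = 0.314). EIF4EBP2 depended on 1 array: without EC-70124 replicate 3 it fell by 0.17 (adjusted p = 0.0326).

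The Rag GTPases, which recruit mTOR complex 1 to the lysosome as dimers of RagA or RagB with RagC or RagD, held 1 fall and 1 rise. RRAGD had intensities of 1435, 1626 and 1143 in EC-70124 cells and 2303, 2486 and 2450 in control cells, and fell by 0.80 (SE 0.12; adjusted p = 0.00114). Replicate 3 was the lowest EC-70124 array, and all 3 were far below the control arrays. This was the largest change among the 42 members with all arrays, but without EC-70124 replicate 3 RRAGD stood at -0.66, and PIK3C2B (-0.73), DEPTOR (-0.71) and PHLPP1 (-0.68) had larger changes. RRAGC rose by 0.36, with means of 2438 ± 25.1 in EC-70124 cells and 1904 ± 86.0 in control cells (SD, n = 3 arrays each; limma adjusted p = 0.00155). RRAGA gave 0.060 (adjusted p = 0.475).

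The FOXO genes did not pass the test. FOXO4 had intensities of 695, 721 and 632 in EC-70124 cells and 723, 785 and 723 in control cells, with a log2 fold change of -0.12 (SE 0.069; adjusted p = 0.216). All its EC-70124 values were below the control values, closely at the nearest, and it passed only under quantile normalization (-0.19, adjusted p = 0.0474) among the alternatives run. FOXO3 had intensities of 1978, 2070 and 1640 in EC-70124 cells and 1873, 1858 and 1176 in control cells. Replicate 3 was the lowest array of FOXO3 in both groups, and the log2 fold change was 0.24 with control replicate 3 (adjusted p = 0.366) and 0.016 without it. FOXO1 gave -0.029 (adjusted p = 0.798).

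SGK1, a kinase close to AKT in sequence that also phosphorylates FOXO factors and whose mRNA is strongly inducible, had intensities of 2017, 1838 and 2150 in EC-70124 cells and 1327, 1467 and 1206 in control cells. It rose by 0.59 (SE 0.089; adjusted p = 0.00126), and no EC-70124 array fell within the control range.

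In the AMPK branch, which restrains mTOR complex 1 when energy is short, STK11, which encodes the AMPK-activating kinase LKB1, had intensities of 1436, 1382 and 1321 in EC-70124 cells and 1766, 1789 and 1686 in control cells. STK11 fell by 0.34 (SE 0.058; adjusted p = 0.00228), with every EC-70124 array below every control array. PRKAA1, which encodes the alpha 1 catalytic subunit of AMPK, rose by 0.25, with means of 4203 ± 137 in EC-70124 cells and 3534 ± 130 in control cells (SD, n = 3 arrays each; limma adjusted p = 0.00970). PRKAA2, which encodes the alpha 2 subunit, gave 0.0081 (95% interval -0.11 to 0.13; adjusted p = 0.930).

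Genes of one role were then compared within each array, to ask whether paralogues or partners changed unequally. The log2 ratio of both genes was taken in each array for 15 pairs, and the difference of that ratio between groups was tested by an exact 2-sided permutation test, which with 3 arrays a group cannot go below 0.1. For 9 of the 15 pairs the ratios did not overlap between groups, and each had this smallest p of 0.1 in the exact test (0.167 after Benjamini-Hochberg adjustment over the pairs). Single genes also separated often, 25.6% of all genes above and 22.0% below, and the count of pairs is a description of these pairs only. The RRAGC to RRAGD ratio was higher in EC-70124 cells by 1.16 on the log2 scale, and the PIK3C2A to PIK3C2B ratio by 1.05. The PHLPP1 to PHLPP2 ratio was lower by 0.92 and the RPS6KB1 to RPS6KB2 ratio lower by 0.56.

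**Figure D2:**
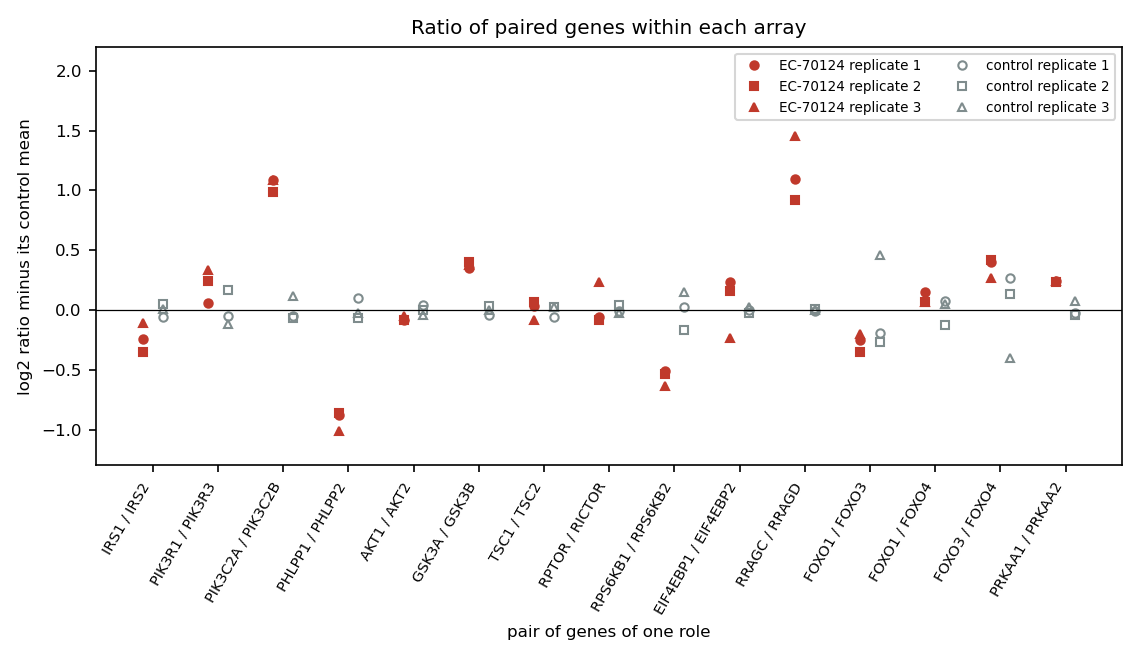
Log2 ratio of both genes of each of the 15 pairs (x axis) in each array, minus the mean of the 3 control arrays (y axis). Filled red symbols are EC-70124 arrays and open gray symbols are control arrays; the RRAGC to RRAGD, PIK3C2A to PIK3C2B, PHLPP1 to PHLPP2 and RPS6KB1 to RPS6KB2 ratios lie farthest from 0.

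Smaller separated ratios were those of GSK3A to GSK3B (0.38), FOXO3 to FOXO4 (0.36), PRKAA1 to PRKAA2 (0.24), IRS1 to IRS2 (-0.23) and AKT1 to AKT2 (-0.072). The FOXO3 to FOXO4 ratios were nearly touching between groups, and without control replicate 3 their difference was 0.16. The AKT1 to AKT2 ratio had an SD of 0.022 over EC-70124 arrays and 0.039 over control arrays. RPTOR and RICTOR both fell, with a difference of 0.032 between them (exact p = 1), and TSC1 and TSC2 differed by 0.0043 (exact p = 0.8). The other 4 pairs overlapped between groups: PIK3R1 with PIK3R3 (0.21, exact p = 0.2), EIF4EBP1 with EIF4EBP2 (0.050, exact p = 0.9), FOXO1 with FOXO3 (-0.27, exact p = 0.4) and FOXO1 with FOXO4 (0.095, exact p = 0.3). Single arrays decided several of these: without control replicate 3 the FOXO1 to FOXO3 difference was -0.038, without control replicate 2 the FOXO1 to FOXO4 difference was 0.032, and without EC-70124 replicate 3 the RPTOR to RICTOR difference was -0.071, the TSC1 to TSC2 difference 0.046 and the EIF4EBP1 to EIF4EBP2 difference 0.19, each of these last without overlap.

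Around these members, 68 of 78 other listed genes of the pathway were measured, also chosen with earlier results of these data known. Of these, 16 rose and 19 fell, or 51.5%, against the 34.5% of all genes given above. Leaving out the dimmest 30% of genes also removed IRS4, PIK3C2G, PIK3R6, INPP5D, PRKAG3 and DDIT4L. Of the other pathway genes then remaining, 17 rose and 20 fell, while 47.7% of all remaining genes passed. Receptors of the insulin family fell. INSR, the insulin receptor, had intensities of 472, 429 and 409 in EC-70124 cells and 899, 928 and 861 in control cells, a log2 fold change of -1.04 ± 0.069 (SE; adjusted p = 2.24e-05). IGF1R, the IGF1 receptor, had intensities of 2179, 2271 and 2277 in EC-70124 cells and 3990, 4312 and 4119 in control cells (-0.88, adjusted p = 1.88e-05), and its second probe set gave -1.20. Both genes separated fully between groups.

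Of the 18 measured genes in that list of receptors, adaptors, other PI3Ks and phosphatases, 3 rose and 4 fell. This was 38.9%, against 34.5% of all genes, or 47.7% without the dimmest 30%. TRIB3, a pseudokinase that binds AKT, rose by 1.57, with intensities of 2623, 2610 and 2071 in EC-70124 cells and 781, 845 and 818 in control cells. PIK3C3, the class III PI3K of endosomes and autophagy, rose by 0.31, while PIK3R4, its regulatory partner, fell by 0.25. INPP5J, a lipid phosphatase, rose by 0.28, with the call lost without control replicate 2 (adjusted p = 0.0763), control replicate 3 (adjusted p = 0.0562) or EC-70124 replicate 1 (adjusted p = 0.0530). GAB2, a docking protein that recruits PI3K, fell by 0.63 with EC-70124 replicate 3 the lowest array, at 999, 1003 and 684 in EC-70124 cells and 1360, 1444 and 1285 in control cells.

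Of 31 measured genes of the mTOR complexes and of the nutrient sensing upstream of them, 10 rose and 8 fell. This was 58.1%, against 34.5% of all genes, or 47.7% without the dimmest 30%. SESN2, a leucine-binding inhibitor of mTOR complex 1 induced by stress, had intensities of 1879, 1948 and 2579 in EC-70124 cells and 552, 613 and 518 in control cells (log2 fold change 1.92 ± 0.12, SE; adjusted p = 1.99e-05). DDIT4, also called REDD1, which acts through the TSC complex, had intensities of 6690, 6585 and 4383 in EC-70124 cells and 2689, 2761 and 2598 in control cells (1.11, adjusted p = 0.000725). In both genes all EC-70124 arrays exceeded the control arrays, with replicate 3 the highest EC-70124 array for SESN2 and the lowest for DDIT4. RRAGB, the partner paralogue of RRAGA, rose by 1.08, with 724, 760 and 785 in EC-70124 cells and 355, 379 and 338 in control cells, and ITFG2, a subunit of the KICSTOR complex, rose by 0.82.

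CASTOR1, the arginine sensor that inhibits mTOR complex 1, had the largest fall of these and fell by 1.36, with intensities of 508, 540 and 465 in EC-70124 cells and 1269, 1304 and 1313 in control cells (adjusted p = 7.49e-06). MAPKAP1, also called SIN1, a subunit of mTOR complex 2, fell by 0.44, and SEC13, a coat protein that is also a subunit of the GATOR2 complex, fell by 0.40. FNIP2, a partner of folliculin, fell by 0.31, with the call lost without control replicate 1 (adjusted p = 0.0692), control replicate 2 (adjusted p = 0.0778) or EC-70124 replicate 2 (adjusted p = 0.0564). Genes of 1 complex did not share a direction: the GATOR2 subunits, a grouping looked at after the values were seen, held 2 rises (MIOS, 0.76, and SEH1L, 0.26) and 3 falls (SEC13, -0.40, WDR24, -0.27, and WDR59, -0.22), of which SEH1L lost its call without control replicate 1 (adjusted p = 0.0559) or control replicate 2 (adjusted p = 0.0575).

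**Figure D3:**
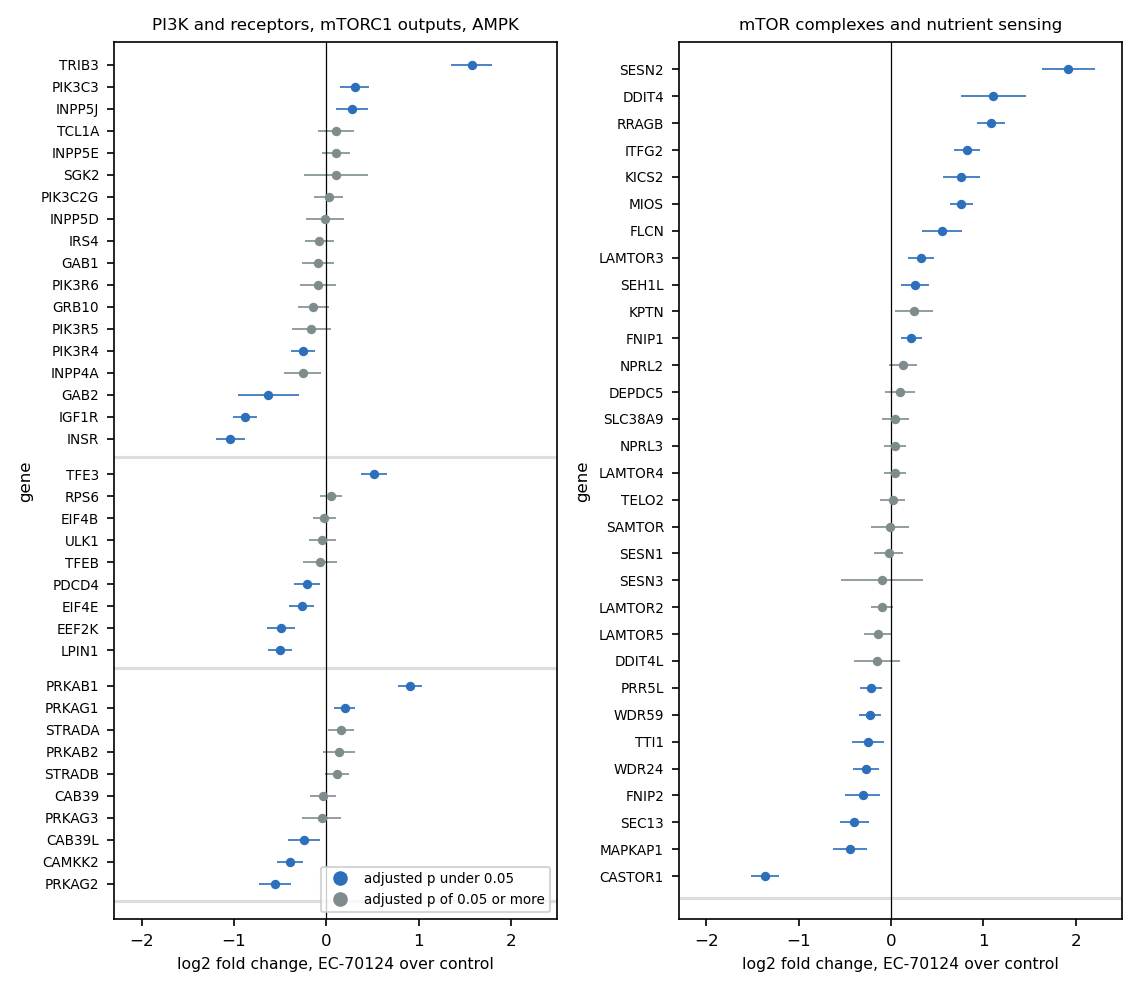
Log2 fold change, EC-70124 over control (x axis), of the other listed pathway genes outside the FOXO targets (y axis), with 95% intervals from limma over 3 arrays a group. Blue points passed the test at an adjusted p under 0.05 and gray points did not; SESN2 (1.92) and TRIB3 (1.57) are the highest and CASTOR1 (-1.36) and INSR (-1.04) the lowest.

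Among 9 measured outputs of mTOR complex 1, 1 rose and 4 fell, or 55.6%, against 34.5% of all genes, or 47.7% without the dimmest 30%. TFE3, a lysosomal transcription factor that mTOR complex 1 keeps in the cytoplasm, rose by 0.52. The falls were LPIN1, a phosphatidate phosphatase (-0.50), EEF2K, the kinase that brakes translation elongation (-0.49), EIF4E, the cap-binding protein (-0.27), and PDCD4, a translation inhibitor (-0.21), which lost its call without any 1 of the 5 arrays other than EC-70124 replicate 2, with an adjusted p of 0.0508 to 0.0997. Among 10 AMPK genes, 2 rose and 3 fell, or 50%, against the same shares of all genes. PRKAB1, the beta 1 subunit, rose by 0.91, with 5497, 5631 and 5721 in EC-70124 cells and 2960, 3139 and 2899 in control cells. PRKAG1, the gamma 1 subunit, rose by 0.20. PRKAG2, the gamma 2 subunit, fell by 0.55, CAMKK2, an upstream kinase, by 0.39, and CAB39L, a scaffold of LKB1, by 0.24. PRKAG1 lost its call without control replicate 1 or 2 or EC-70124 replicate 1 or 2 (adjusted p of 0.0512 to 0.0614), and CAB39L without any 1 array but EC-70124 replicate 3 (0.0506 to 0.128).

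Genes known from other systems as FOXO targets, also listed with earlier results of these data known, mostly fell where they passed. Of 25 measured, 2 rose and 9 fell, so that 44.0% were called against 34.5% of all genes. By direction, 8% were called up against 19.7% and 36% down against 14.8%. With the dimmest 30% of genes left out, a cut that also removed TRIM63, G6PC1 and TNFSF10, 2 of these targets rose and 9 fell. Of the 12892 genes then remaining, 3446 rose and 2702 fell, and 47.7% passed in either direction. The largest fall was DEPP1, a FOXO-induced regulator of autophagy, at 286, 300 and 202 in EC-70124 cells and 1161, 1291 and 1057 in control cells (log2 fold change -2.17 ± 0.15, SE; adjusted p = 2.59e-05). INSR, given above, is also in this list. FBXO32, a ubiquitin ligase of muscle atrophy, fell by 0.95, with 360, 382 and 335 in EC-70124 cells and 694, 742 and 651 in control cells. PDK4, which restrains pyruvate oxidation, had 775, 829 and 379 in EC-70124 cells and 1170, 1148 and 1115 in control cells: it fell by 0.87 with all arrays and by 0.51 without EC-70124 replicate 3, and its call was lost without control replicate 1, 2 or 3 (adjusted p of 0.0754 to 0.0892).

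The rises were GADD45A, a growth arrest gene that responds to DNA damage and other stresses as well as to FOXO, at 4803, 4805 and 4229 in EC-70124 cells and 1158, 1164 and 1224 in control cells (log2 fold change 1.96 ± 0.068, SE; adjusted p = 2.58e-06), and CITED2, a transcriptional coregulator, at 0.20, which lost its call without control replicate 1 (adjusted p = 0.0656) or control replicate 3 (adjusted p = 0.0651). Without EC-70124 replicate 3, CCNG2 (0.54, adjusted p = 0.000252) and KLF6 (0.22, adjusted p = 0.0215) also passed, so that 4 of these genes rose. CDKN1B and BCL2L11, cell cycle and apoptosis genes commonly used as FOXO readouts, gave 0.081 (adjusted p = 0.340) and 0.13 (adjusted p = 0.431).

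The calls differed in how firmly they held. Under the 14 other ways of processing or leaving out arrays, 13 of the 22 called members passed every time they were fitted: PIK3CB, PIK3CG, PIK3C2A, PIK3C2B, INPP4B, PHLPP1, RPTOR, MLST8, RPS6KB2, RRAGC, SGK1, PRKAA1 and STK11. The other 9 lost the call at least once, RICTOR, DEPTOR and RRAGD under the methods' t-test only. No called member changed sign, 6 uncalled members passed at least once, and 14 passed under no setting.

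**Figure D4:**
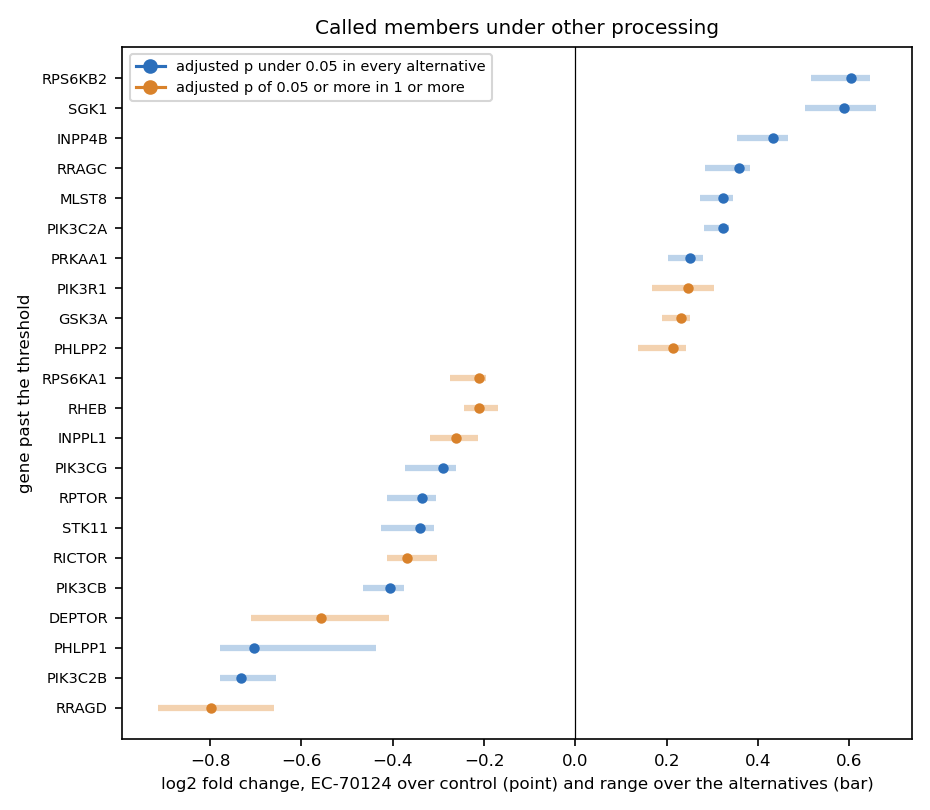
Log2 fold change, EC-70124 over control, of the 22 called members (y axis), with the reported value as a point and its range over the alternatives as a bar (x axis, log2 scale). Blue members passed under every alternative and orange members lost the call under at least 1; no bar reaches 0.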

How the data were processed

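Per the labels and the study's methods, MDA-MB-231 RNA was hybridised to Affymetrix Human Gene ST arrays. The authors imported the scans into dChip, normalized all arrays by pairwise rank-invariant probes and deposited 1 model-based intensity per probe set; the dChip version and background correction were not given in the sources used here. Intensities were set to at least 1 and converted to log2. Of the probe sets, 19460 carried 1 gene symbol, 1754 several and 12038 none, and 769 genes had over 1 probe set, of which the brightest on average was used. Groups were compared with limma 3.58.1 in R 4.3.3 (lmFit and eBayes, 2-sided, Benjamini-Hochberg over 18417 genes, threshold 0.05), and the promoter search and plots used Python 3.11.15, pandas 2.3.3 and matplotlib 3.10.9. On simulated data of the same 18417 genes, 200 of them changed, 82% of changed genes were recovered at 1.5-fold and 94% at 2-fold. In it, 10 unchanged genes were called. The simulation changed far fewer genes than the 34.5% called in the data and drew each array independently, so these shares may not hold for the data. Arrays have no read depth, so their number, 3 a group, limits the precision. The limma p-values set each difference against the spread between arrays within a group, moderated over all genes. The exact p-values come from reordering the group labels. Both concern samples of 1 cell line only. Values in every array are given for members past the threshold with a log2 change of at least 0.5, for the member with the lowest p in a role without one, and where 1 array decided a value. Of the other lists, up to 4 rises and 4 falls with the largest change are named. The members and lists were chosen with earlier results of these data known.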

Additional observations from a re-analysis of the deposited data

How the results depend on the processing

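Alternatives to the processing were quantile normalization, cyclic loess, an offset of 50, the median over probe sets and leaving out the dimmest 30% of genes. Alternatives to the fit were limma with trend and robust settings, a per-gene t-test, a replicate block and leaving out each array in turn. The t-test was a 2-sided Welch test on log2 values, Benjamini-Hochberg adjusted over all genes. The study's methods name a t-test only as the score of their gene set analysis, not as a test of single genes. The count of members called down was 6 under the per-gene t-test, against 12, and that of members called up was 9, against 10. Under the same test 1962 genes rose and 1280 fell over all genes, 10 other pathway genes rose and 8 fell, and 3 FOXO target genes fell. Genes named in the text that lost their call there, with adjusted p of 0.0522 to 0.281, were PIK3C3, INPP5J, GAB2, PIK3R4, DDIT4, MAPKAP1, SEC13, FNIP2, WDR24, SEH1L, EIF4E, PDCD4, PRKAG2, CAB39L and PDK4 beside 7 members, DDIT4 at 0.101, MAPKAP1 at 0.118 and GAB2 at 0.174. Leaving out 1 array gave 1 to 4 FOXO target genes called up, 7 to 10 members up and 10 to 16 members down. All other counts stayed within 1.5 times their reported value, and no called member changed sign, but the balance over all genes turned under quantile normalization, with 3112 rises and 3527 falls, against 3631 and 2722 as deposited. Same-numbered arrays of the groups did not deviate together throughout (correlations of 0.127, -0.0225 and 0.136), so the numbers were not taken as pairs; with the replicate number as a block, 10 members rose and 12 fell, all 22 of them calls that were also made without it, while CAB39L lost its call (adjusted p = 0.0548). With 3 arrays a group the exact test cannot pass 0.1, and changes in dim genes such as DEPTOR cannot be separated from background.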
